A study of Rattus norvegicus with 9 samples.

Results

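The genes described here encode the subunits, assembly factors and activators of the proteasome, measured in rat kidney RNA. Rows of the gene table were taken where the symbol began with Psma to Psmg followed by a number, and Psmb8, Psmb9 and Psmb10, the genes of the immunoproteasome, were left out. Of 46 such rows, 44 had at least 1 CPM in at least 3 libraries, out of 36267 rows in the table and 16731 that passed the same minimum. Of the 36267 rows, 22050 carry rat Ensembl identifiers and 14217 are assembled features without one. Both kinds that passed the minimum are counted in every share of all genes and in the adjustment of p. CPM is a gene's read count scaled to the same total in every library. The 2 rows below the minimum were Psma8, an alpha subunit made mainly in testis, at 0 to 0.0925 CPM, and Psmb11, a beta subunit of the thymic cortex, at 0 to 0.0548 CPM. The rows just inside it were Psmc3ip at 1.34 to 2.82 CPM and Psmd10 at 2.51 to 6.73 CPM. Psmc3ip shares only the start of its symbol with the family: it encodes a cofactor of meiotic recombination and is no subunit, so 43 of the 44 are proteasome genes.

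The libraries came from whole kidneys of 9 rats weighing 180 to 200 g, 3 rats in each of 3 groups, and strain, sex and age are not stated. Control animals were untreated. Animals with contrast-induced acute kidney injury (CIAKI) received furosemide, a loop diuretic, by stomach tube at 200 mg/kg, went 6 h without water, and were then injected in the tail vein with 15 mL/kg of iopromide, an iodinated radiocontrast agent at 370 mg iodine per mL. The icariin animals were dosed by stomach tube with icariin, a plant flavonoid glycoside, at 100 mg/kg on each of 3 days and then underwent that whole procedure. CIAKI therefore joins diuretic, water loss and contrast medium in a single treatment, and no group received icariin alone. Per library, between 64.4 and 90.4 reads made up a value of 1 CPM.

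The proteasome is the barrel-shaped protease that degrades ubiquitin-tagged proteins in the cytosol and nucleus. Its 20S core is a stack of alpha rings, which gate the entrance, and beta rings, which carry the active sites on Psmb5, Psmb6 and Psmb7. The 19S particle caps the core: a ring of ATPases unfolds the substrate, and non-ATPase subunits bind it and take off the ubiquitin. When proteasome capacity falls short, cells are known to raise the genes of both particles together, chiefly through the transcription factor Nfe2l1.

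Nearly all proteasome genes stood higher in CIAKI than in control kidneys, by a similar and moderate amount. Of the 44 genes, 38 rose, 0 fell and 6 were not called; the family's median log2 fold change was 0.53, within a range of -0.13 to 1.15. A gene is called here at an adjusted p below 0.05 in limma (a linear model with moderated variances fitted to all tested genes). Over all 16731 genes 41.3% were called, 20.8% as higher and 20.5% as lower, and the median log2 fold change was 0. In 38 of the 44 genes every CIAKI library lay above every control library, which held for 26.9% of all genes. The genes not called were Psmb2, Psme1, Psme4, Psmf1, Psmg1 and Psmc3ip. Fold changes are differences of log2(CPM + 1), and they understate the change of genes with low values.

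With icariin given beforehand, the same family stood lower than in CIAKI alone. Of the 44 genes, 35 fell, 0 rose and 9 were not called (Psma7, Psmb2, Psmd3, Psme1, Psme2, Psmf1, Psmg1, Psmg3 and Psmc3ip), with a median of -0.46 and a range of -1.18 to 0.20. Over all genes 39.4% were called, 20.2% as lower, with a median of 0.02. All icariin libraries lay below all CIAKI libraries in 38 of the 44 genes, against 25.9% of all genes, and above them in 2 (Psmf1 and Psmg1), against 24.9%. This comparison uses the same 3 CIAKI libraries as the first, so their values enter both.

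No proteasome gene was called between icariin and control kidneys, where 0.628% of all genes were. At an unadjusted p below 0.05 limma gave 1 of the 44, Psme4, and edgeR and DESeq2 on the recovered reads also called 0 after adjustment. The median log2 difference was 0.05 and the range -0.22 to 0.19. At the ends of that range stood Psme4 (-0.22, SE 0.09, adjusted p = 0.41) and Psmd8 (0.19, SE 0.10, adjusted p = 0.61). Icariin libraries lay wholly above control libraries in 4 genes and wholly below in 3, against 9.12% and 10.2% of all genes.

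**Figure D1:**
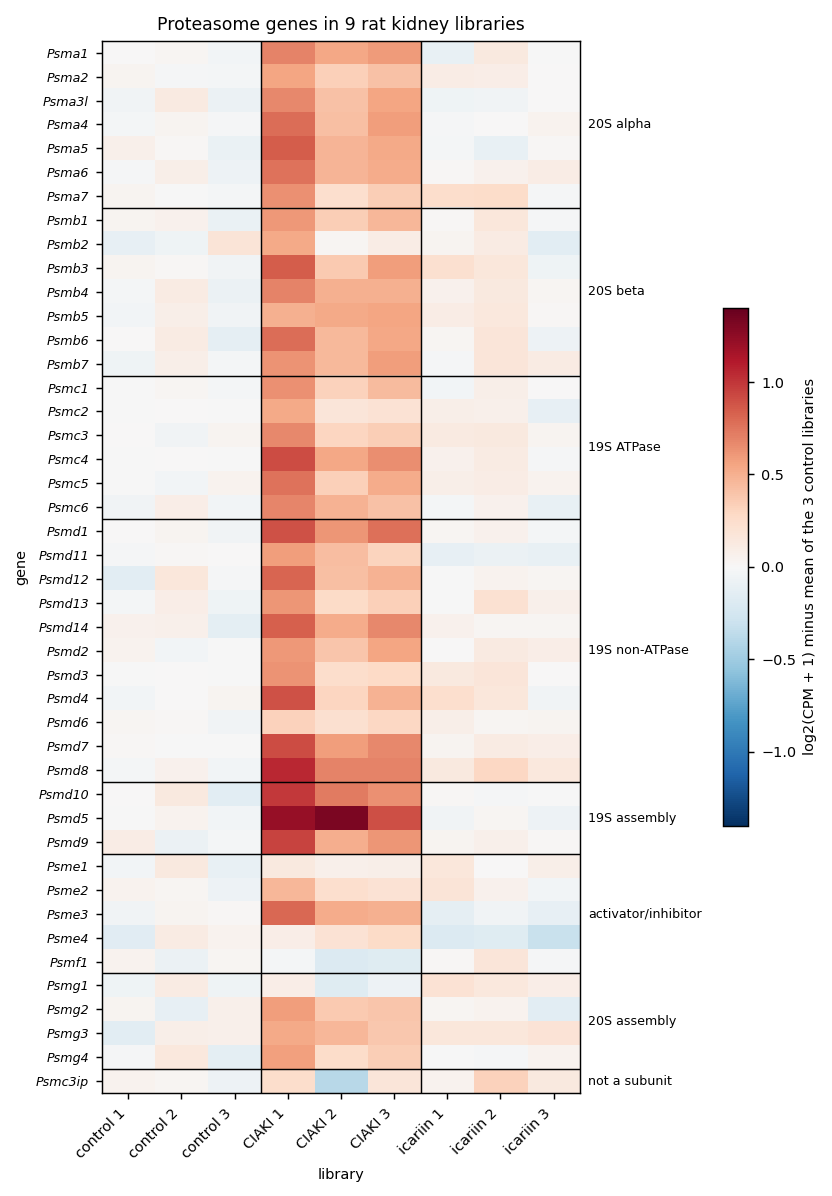
Level of each of the 44 genes (rows, grouped by role) in each of the 9 libraries (columns), as log2(CPM + 1) minus the mean of the 3 control libraries; red is higher and blue lower. The CIAKI columns are red in nearly all rows, with a median over genes of 0.65, 0.40 and 0.48 in CIAKI 1, 2 and 3, while the icariin columns lie near the control level at 0.04, 0.10 and 0.01.

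The CIAKI libraries differed among themselves in step. Across the family, summed CPM came to 3168.3, 3330.1 and 3170.9 in control, 5030.1, 4266.3 and 4455.9 in CIAKI and 3245.6, 3368.6 and 3164.5 in icariin libraries. The CIAKI sums lay above all others, and the icariin sums overlapped those of control. Library CIAKI 1 had the highest value of its group in 41 of 44 genes, and CIAKI 2 the lowest in 35. The exceptions were Psmb5 and Psme4, highest in CIAKI 3, and Psmd5, highest in CIAKI 2. Without CIAKI 1 the family's median fold change was 0.44, and 35 genes were called higher.

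All 7 tested genes of the alpha ring rose in CIAKI, with a median of 0.59 (log2 scale) and a range from 0.41 (Psma7) to 0.62 (Psma5). Psma1 was measured at 87.0, 88.6 and 84.3 CPM in control, at 141.0, 126.5 and 131.7 in CIAKI and at 80.3, 95.4 and 86.3 in icariin kidneys. Each CIAKI rat exceeded every other rat, and the icariin values enclosed those of control. The log2 fold change of Psma1 in CIAKI was 0.61 (SE 0.08, adjusted p = 0.00041), and against CIAKI the icariin value was -0.60 (SE 0.08, adjusted p = 0.00051). Psma6 read 85.2, 91.4 and 81.9 CPM in control, 147.0, 120.2 and 124.3 in CIAKI and 87.1, 89.5 and 92.4 in icariin libraries. CIAKI 1 was the high one here, yet the lowest CIAKI library was still well clear of the rest (0.59, SE 0.08, adjusted p = 0.00082, and -0.53, adjusted p = 0.0015, with icariin). Psma4 moved likewise, at 0.59 (adjusted p = 0.00093) and -0.58 (adjusted p = 0.0011). The table's symbol Psma3l, which RefSeq lists as Psma3, rose by 0.54 and fell by 0.57. In 6 of the 7 genes the icariin value fell below that of CIAKI with a median of -0.57 for the ring. Psma7 was the one not called, at -0.25 (SE 0.11, adjusted p = 0.11): its icariin values of 69.6, 70.3 and 58.0 CPM overlapped the CIAKI values of 92.0, 69.1 and 74.9. Its call in CIAKI (0.41, adjusted p = 0.018) was lost without control 2 or control 3.

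Of the 7 tested constitutive beta subunits, 6 rose in CIAKI, with a median of 0.55. The active-site subunits were among them. Psmb5, which carries the chymotrypsin-like activity, stood at 66.1, 72.2 and 65.6 CPM in control, 96.3, 98.5 and 100.4 in CIAKI and 73.2, 75.2 and 68.5 in icariin kidneys. Its CIAKI rats lay close together and well above the others. The log2 fold change of Psmb5 was 0.53 (SE 0.07, adjusted p = 0.00040) in CIAKI and -0.44 (adjusted p = 0.0011) for icariin against CIAKI. Psmb6, the caspase-like subunit, stood at 35.7, 38.6 and 32.5 CPM, at 61.9, 49.1 and 52.1, and at 36.1, 40.1 and 33.7 in the same order, a rise of 0.59 (SE 0.11, adjusted p = 0.0026) and a fall of 0.55 (adjusted p = 0.0039). Psmb7, the trypsin-like subunit, went from 75.8, 84.1 and 77.7 CPM to 122.7, 108.4 and 118.9, and was at 78.1, 89.3 and 85.5 with icariin. Its changes were 0.55 (SE 0.08, adjusted p = 0.00073) and -0.46 (adjusted p = 0.0019). All 3 active sites therefore showed the pattern of the ring as a whole, and so did the structural subunit Psmb4 (0.56, adjusted p = 0.00077).

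The exception in the beta ring was Psmb2, a structural subunit. It read 25.7, 26.6 and 31.6 CPM in control, 40.7, 28.4 and 29.9 in CIAKI and 28.7, 30.2 and 25.0 with icariin. Only CIAKI 1 stood out, and the groups overlapped. The fold change of Psmb2 was 0.22 (SE 0.14, adjusted p = 0.25).

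All 6 ATPases of the 19S base rose in CIAKI and fell with icariin, with medians of 0.50 and -0.46. Psmc4 varied little in control, at 74.4, 74.9 and 74.2 CPM, and reached 140.7, 109.2 and 117.1 in CIAKI. With icariin Psmc4 was at 77.6, 80.5 and 73.5 CPM, so that control and icariin rats overlapped and CIAKI rats stood apart (0.70, SE 0.09, adjusted p = 0.00051, and -0.65, adjusted p = 0.00083). Psmc6 changed by 0.52 (adjusted p = 0.0015) and Psmc1 by 0.47 (adjusted p = 0.0021) in CIAKI. The smallest change was that of Psmc2, from 73.4, 73.7 and 73.4 CPM to 106.4, 83.0 and 84.5 (0.30, SE 0.10, adjusted p = 0.040). CIAKI 1 carries much of it: without that library the fold change of Psmc2 was 0.19 and was not called. Its call was lost under 11 of 22 alternative settings, also without control 1, 2 or 3 or icariin 1 or 2.

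All 11 non-ATPase subunits of the 19S particle rose as well, with a median of 0.56, and 10 fell with icariin, with a median of -0.54. Psmd1, the scaffold to which ubiquitin receptors attach, had 177.1, 180.8 and 170.4 CPM in control, 328.5, 270.7 and 300.2 in CIAKI and 180.1, 184.2 and 172.9 in icariin kidneys. Control and icariin libraries overlapped, and every CIAKI library stood far above them. Psmd1 had a fold change of 0.76 (SE 0.08, adjusted p = 0.00016) and of -0.74 (adjusted p = 0.00022). Psmd8, a subunit of the lid, had 76.6, 81.8 and 76.2 CPM, then 163.7, 126.7 and 127.0, and 85.9, 95.7 and 86.4 with icariin. Its changes were 0.81 (SE 0.10, adjusted p = 0.00044) and -0.63 (adjusted p = 0.0018). The icariin libraries of Psmd8 all lay above control, as in 4 genes of the family and 9.12% of all genes. Psmd8 was not called in that comparison (adjusted p = 0.61).

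The lid's deubiquitinase Psmd14 and its inactive partner Psmd7 moved alike. Psmd7 had 52.1, 51.4 and 51.2 CPM in control, 98.1, 77.6 and 82.9 in CIAKI and 53.0, 56.0 and 55.0 with icariin (0.72, SE 0.09, adjusted p = 0.00033, and -0.64, adjusted p = 0.00068). Psmd14 changed by 0.67 (adjusted p = 0.00074) and -0.64 (adjusted p = 0.0011). At the lower end stood Psmd6, from 67.5, 67.2 and 64.0 CPM to 83.2, 77.3 and 81.4, a change of 0.28 (SE 0.06, adjusted p = 0.0054) with groups still apart. Psmd3 was the one not called as lower with icariin (-0.28, adjusted p = 0.052).

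By median, the helpers that build the 19S base moved most of the family's role groups, although single subunits of the finished particle changed as much as some of them. Psmd5, Psmd9 and Psmd10 are not part of the finished particle: each binds ATPases during assembly and then leaves. All 3 rose and all 3 fell with icariin, with medians of 0.79 and -0.79. Psmd5 went from 50.8, 52.9 and 49.9 CPM in control to 120.8, 129.2 and 96.7 in CIAKI, and was at 49.6, 52.0 and 48.6 with icariin. Its CIAKI mean was 2.26 times that of control, and its lowest CIAKI library was far above all 6 others. The fold changes of Psmd5, 1.15 (SE 0.10, adjusted p = 8.1e-05) and -1.18 (SE 0.10, adjusted p = 9.5e-05), were the largest of the 44 genes. Psmd10, also known as gankyrin, had 2.90, 3.27 and 2.51 CPM, then 6.73, 5.44 and 5.05, and 2.93, 2.85 and 2.88 with icariin (0.79, SE 0.14, adjusted p = 0.0027, and -0.79). Psmd10 is low enough for the added 1 CPM to matter, and its ratio of mean CPM was 1.98. Psmd9 changed by 0.69 (SE 0.12, adjusted p = 0.0022) and -0.65 (adjusted p = 0.0033). In CIAKI the finished subunits Psmd8 (0.81), Psmd1 (0.76), Psmd7 (0.72) and Psmc4 (0.70) rose more than Psmd9, and Psmd8 also more than Psmd10.

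Of the 4 chaperones of the 20S core, 3 rose and 1 was not called (median 0.42), and 2 fell with icariin against CIAKI. Psmg2 (0.45, adjusted p = 0.0099), Psmg3 (0.46, adjusted p = 0.015) and Psmg4 (0.39, adjusted p = 0.032) rose in CIAKI. The call of Psmg3 was lost without control 1, and that of Psmg4 without control 1, control 3, CIAKI 1 or CIAKI 3. Psmg1, which pairs with Psmg2 in starting the alpha ring, had 30.4, 34.3 and 30.4 CPM in control, 33.8, 28.1 and 30.0 in CIAKI and 36.6, 35.1 and 33.9 with icariin (-0.05, SE 0.09, adjusted p = 0.71, and 0.20, adjusted p = 0.11). Control and CIAKI overlapped, and all icariin libraries were narrowly above all CIAKI libraries. The maturation protein Pomp, which completes the core with these chaperones, was at 36.9, 32.0 and 36.1 CPM in control and 41.7, 32.8 and 35.8 in CIAKI (0.06, SE 0.12, adjusted p = 0.70). With icariin Pomp was at 26.3, 33.1 and 26.9 CPM, called lower than in CIAKI (-0.34, SE 0.12, adjusted p = 0.046) although the values overlapped. That call was lost without control 1, 2 or 3, CIAKI 1 or 3, or icariin 1 or 3.

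**Figure D2:**
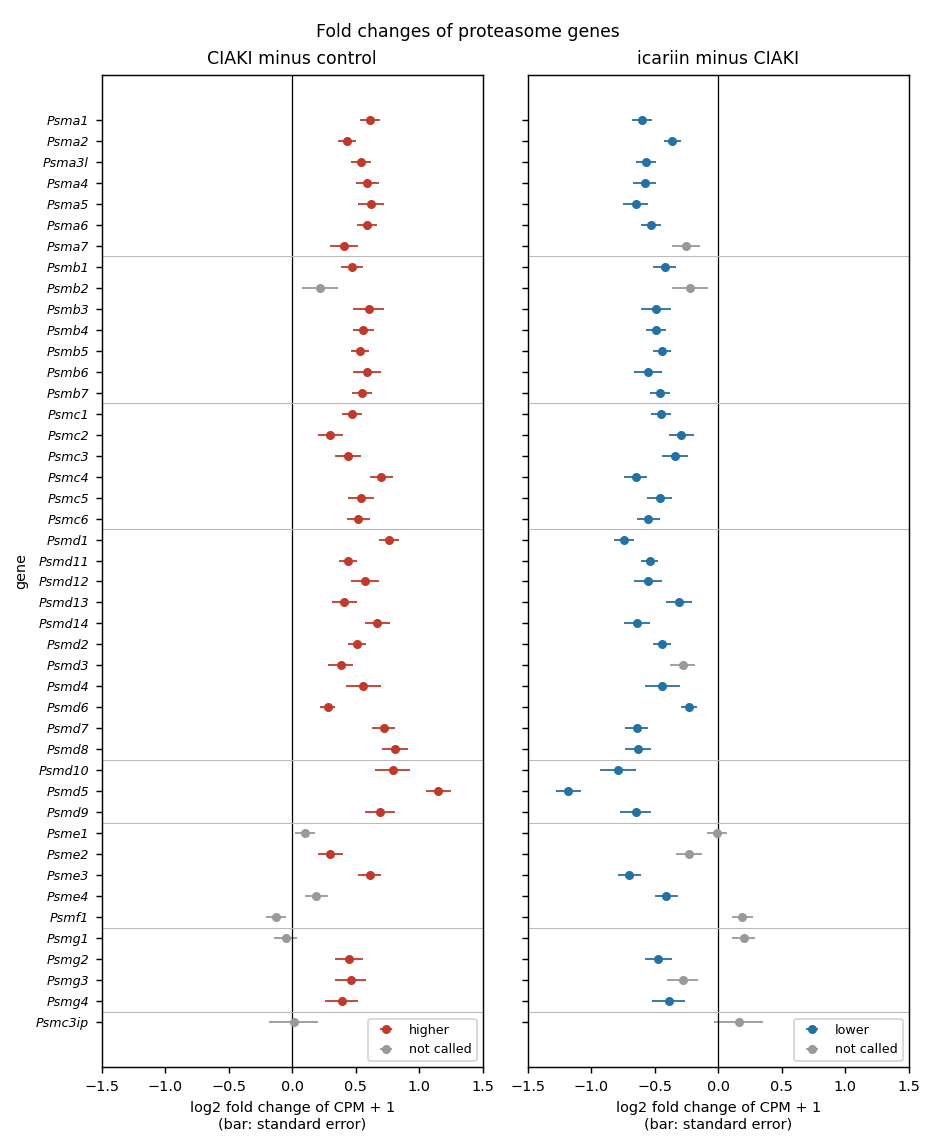
Log2 fold change (x axis, CPM + 1) of each of the 44 genes (y axis, grouped by role) for CIAKI minus control and for icariin minus CIAKI; points are estimates, bars standard errors, and color marks the call. In the left panel 38 points are red and none is blue, with Psmd5 farthest out at 1.15, and in the right panel 35 are blue and none is red.

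Of the 4 genes of other caps and the inhibitor Psmf1, 2 rose in CIAKI, Psme3 and Psme2, and 2 fell with icariin against CIAKI, Psme3 and Psme4. Psme3, which forms the nuclear PA28 gamma activator, had 104.1, 110.5 and 108.6 CPM in control, 189.0, 155.2 and 152.1 in CIAKI and 98.8, 104.0 and 99.7 with icariin. CIAKI rats lay above all control rats and icariin rats just below them (0.61, SE 0.09, adjusted p = 0.00074, and -0.70, adjusted p = 0.00043). Psme1 and Psme2 form the other PA28 cap, which interferon induces and which serves antigen processing. Psme1 stood at 71.1, 79.9 and 67.8 CPM in control and 79.9, 76.6 and 76.9 in CIAKI (0.10, SE 0.08, adjusted p = 0.34), and Psme2 changed by 0.30 (SE 0.10, adjusted p = 0.035), a call lost under 7 of 22 settings, among them those without control 1, 2 or 3, CIAKI 1 or icariin 2.

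Psme4 encodes PA200, a single-chain nuclear cap. It stood at 333.5, 404.3 and 384.6 CPM in control, 397.3, 428.1 and 449.5 in CIAKI and 325.5, 332.7 and 301.0 with icariin. CIAKI overlapped control (0.19, SE 0.09, adjusted p = 0.12), while icariin lay below CIAKI (-0.41, SE 0.09, adjusted p = 0.0066) and also, narrowly, below each control library. Psmf1, the proteasome inhibitor PI31, had 32.8, 30.0 and 32.4 CPM in control, 31.1, 27.7 and 28.1 in CIAKI and 32.1, 35.9 and 31.4 with icariin (-0.13, SE 0.08, adjusted p = 0.26, and 0.19, adjusted p = 0.10). It was the family's lowest fold change in CIAKI.

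How closely each gene tracked the family was described by Pearson's r between its log2 level and the median of the other members over the 9 libraries. These libraries span the control, CIAKI and icariin groups, so r includes the group differences already given and does not measure tracking within a group. For 38 genes r was 0.87 to 1.00. It was lower for Psmb2 (0.70), Psme4 (0.66), Psme1 (0.39), Psmc3ip (0.06), Psmg1 (-0.27) and Psmf1 (-0.53). The fold changes of the 14 core genes had an SD of 0.11 and those of the 17 genes of the 19S particle an SD of 0.16, about medians of 0.56 and 0.52.

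Levels can be compared between genes only per length, and the authors' deposited table of 3975 selected mRNAs gives FPKM (fragments per kilobase, scaled for depth) for CIAKI and icariin libraries. Of the 44 genes, 11 are in it. In that table the highest CIAKI level was that of Psma1, at 90.1, 83.5 and 87.5 FPKM, and its icariin values were 53.5, 63.2 and 58.7. Next came Psmd1 at 80.4, 68.5 and 76.4 and Psmd8 at 80.9, 64.7 and 65.2, whose ranges overlap. The assembly chaperones Psmd5 (41.0, 45.3 and 34.1), Psmd9 (15.6, 11.8 and 12.8) and Psmd10 (9.51, 7.93 and 7.40) were below these 3 genes in the authors' deposited table. Psmd5 there overlapped the subunits Psmd7 (47.1, 38.5 and 41.3) and Psmd14 (35.0, 28.8 and 32.3). In it all 11 genes had lower FPKM in each icariin library than in any CIAKI library. The authors chose that table from these libraries, so its direction is not independent.

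The immunoproteasome genes, which replace the active-site subunits in immune and interferon-treated cells, did not move as 1 group. Of the 3, Psmb8 and Psmb9 fell in CIAKI and Psmb10 was not called. Psmb8, the counterpart of Psmb5, had 8.91, 6.82 and 7.27 CPM in control, 2.86, 3.30 and 1.60 in CIAKI and 7.89, 6.11 and 3.47 with icariin. All CIAKI rats were below all others (-1.30, SE 0.27, adjusted p = 0.0053). Psmb9, the counterpart of Psmb6, had 7.0, 6.19 and 5.92, then 2.72, 2.82 and 1.96, and 5.73, 4.84 and 4.15 CPM with icariin (-1.08, SE 0.16, adjusted p = 0.00096). With icariin both were higher than in CIAKI, by 0.90 (adjusted p = 0.028) and 0.76 (adjusted p = 0.0058), and the call of Psmb8 was lost when CIAKI 3, icariin 1 or icariin 2 was left out. Psmb10, the counterpart of Psmb7, had 7.33, 7.24 and 6.88 CPM in control and 9.57, 10.1 and 8.20 in CIAKI (0.33, SE 0.14, adjusted p = 0.091). Every CIAKI library of Psmb10 lay above every control library, the direction of the constitutive genes. Psmb10 was called higher in CIAKI by limma after quantile normalization (0.415, adjusted p = 0.0329) and by DESeq2 (0.377, adjusted p = 0.0498). The icariin values of Psmb10, 8.03, 6.45 and 5.71 CPM, were lower than those of CIAKI (-0.42, adjusted p = 0.043). That call was lost with control 1, 2 or 3, CIAKI 1 or 2, or icariin 2 or 3 left out. The ratio of Psmb5 to Psmb8 in CPM was 7.43 to 10.6 in control, 29.9 to 62.7 in CIAKI and 9.28 to 19.7 in icariin libraries. That of Psmb6 to Psmb9 was 5.10 to 6.24, 17.4 to 26.6 and 6.29 to 8.28. That of Psmb7 to Psmb10 overlapped in all groups, at 10.3 to 11.6, 10.8 to 14.5 and 9.73 to 15.0.

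Marker RNA of other cell types also differed between the groups. The summed CPM of 10 lymphocyte markers was 26.5 to 29.3 in control, 6.20 to 9.50 in CIAKI and 14.6 to 24.7 in icariin libraries, and 5 of the 5 tested fell in CIAKI. Most of each sum was Cd4, at 17.3 to 20.4 CPM in control, 4.77 to 8.26 in CIAKI and 10.8 to 20.2 with icariin. The summed CPM of 9 macrophage markers was 134.8 to 144.3, 71.3 to 122.8 and 109.4 to 154.3 in the same order. Of the 8 tested, Adgre1, Csf1r and Ptprc fell in CIAKI and Mrc1 rose. Among neutrophil markers none of 6 was tested and Elane was at 0. They summed to 0.617 to 2.53 CPM in control, 1.55 to 3.04 in CIAKI and 0.0283 to 0.852 in icariin libraries. At these low values, Cxcr2 and S100a8 were higher in every CIAKI library than in any control or icariin library, while the groups overlapped for Mpo, S100a9 and Ly6g6d. Of 10 proximal tubule markers 7 fell in CIAKI and 8 rose with icariin against CIAKI, and their sum in CIAKI was 10885.4 to 14748.7 against 23696.8 to 27648.9 CPM in control. All 5 podocyte markers fell in CIAKI. The 6 erythroid markers in the table summed to 2248.8 to 2788.0 CPM in CIAKI, and to 1585.5 in control 1 against 413.4 and 398.3 in the other control libraries. In icariin libraries they summed to 412.2, 1594.6 and 1427.7 CPM. Of the 6, 4 rose in CIAKI, and Alas2 and Slc4a1 were not called. Slc4a1, at 122.2 to 213.2 CPM over all libraries, is part of each sum. Markers of the thick limb and distal segments summed to 4394.2 to 6250.0 in CIAKI and 5129.2 to 7639.9 in control, with Pvalb at 0. These sums join opposite changes, since of the 7 tested Egf, Umod and Slc12a3 fell in CIAKI and Aqp2 rose. The part of these shifts in the proteasome values was not tested. In whole-kidney RNA, fewer cells of a type and less RNA per cell cannot be told apart. Mitochondrially encoded genes took 3.86% to 5.71% of the reads, except in icariin 2 with 1.65%. Icariin 2 was highest of its group in 28 of the 44 genes, and so was control 2, at 3.86%.

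**Figure D3:**
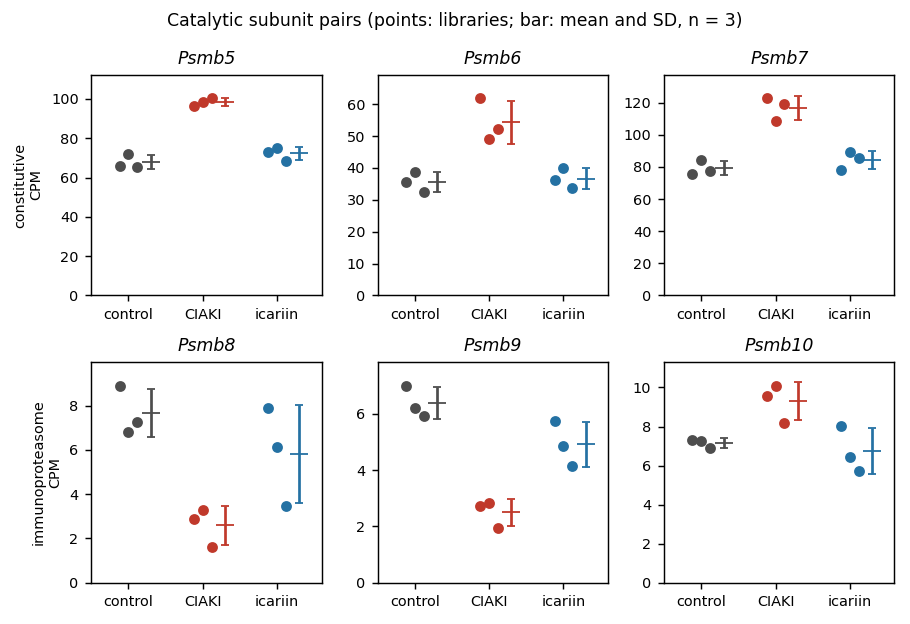
CPM (y axis, from 0) of the constitutive active-site genes (upper row) and their immunoproteasome counterparts (lower row) by group; points are libraries, and the bar beside them is the mean with SD (n = 3). Psmb5, Psmb6 and Psmb7 are highest in CIAKI, and Psmb8 and Psmb9 are lowest there. Psmb10 lies between 8.20 and 10.1 CPM in CIAKI, above all control and icariin libraries.

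Proteasome subunits and partners whose symbols do not start with Psm were read as a separate list of 13 genes. Of these 8 rose in CIAKI, 1 fell and 4 were not called (median 0.34), and 11 fell with icariin against CIAKI (median -0.42). Of all genes 20.8% were called higher in CIAKI and 20.2% lower with icariin. Usp14, a deubiquitinase bound to the 19S particle, had 66.1, 74.1 and 66.2 CPM in control, 118.7, 110.6 and 100.3 in CIAKI and 57.6, 61.0 and 57.6 with icariin (0.67, SE 0.08, adjusted p = 0.00034, and -0.89, adjusted p = 0.00012). Its icariin rats lay below all others. Txnl1, a thioredoxin-like protein of the 19S particle, rose by 0.59 (adjusted p = 0.00054), the import factor Ipo9 by 0.40 (adjusted p = 0.00063) and Zfand5, an activator of the 26S proteasome, by 0.56 (adjusted p = 0.0017). The ubiquitin receptor Adrm1 rose by 0.49 (adjusted p = 0.0033). The small 19S subunit Sem1 was at -0.11 (adjusted p = 0.50). Fam192a, known as a partner of the Psme3 cap, fell by 0.29 (adjusted p = 0.0099). The largest value was that of Zfand2a, a stress-induced partner of the 19S particle picked out after its values were seen: 20.2, 20.4 and 18.0 CPM in control, 79.7, 146.8 and 40.4 in CIAKI and 18.4, 19.4 and 14.2 with icariin (1.95, SE 0.37, adjusted p = 0.0031, and -2.12). Its CIAKI libraries spread widely, and CIAKI 2 was the highest.

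Genes known to act on proteasome gene expression made a list of 12, of which 8 rose in CIAKI, 1 fell and 3 were not called (median 0.31), beside 20.8% and 20.5% of all genes called higher and lower. With icariin against CIAKI 7 fell and 1 rose (median -0.33), beside 20.2% and 19.2%. Nfe2l1, the activator of the compensatory response, had 148.0, 154.4 and 156.2 CPM in control and 169.4, 180.2 and 148.6 in CIAKI, which overlap (0.11, SE 0.11, adjusted p = 0.43). The factor is known to be controlled by cleavage and turnover of its protein, which RNA levels do not show. Its relative Nfe2l2 rose by 0.29 (SE 0.08, adjusted p = 0.020), a call lost without control 1, control 3 or CIAKI 2. Among the enzymes that process Nfe2l1, Vcp, the ATPase that extracts it from the membrane, rose by 0.46 (adjusted p = 0.0025), and Ngly1, which removes its sugars, fell by 0.23 (adjusted p = 0.030). The call of Ngly1 was lost without control 2, control 3 or CIAKI 2. Ddi2, of the same list, rose by 0.24 (SE 0.08, adjusted p = 0.037) in CIAKI and did not fall with icariin against CIAKI (0.13, adjusted p = 0.23). Its icariin values of 430.7, 445.2 and 457.5 CPM lay above all control and CIAKI libraries, though not called against control (0.38, adjusted p = 0.097). Whether the call of Ddi2 in CIAKI holds under the alternative settings was not examined.

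Stat3, a cytokine-activated transcription factor, went from 160.8, 160.7 and 160.3 CPM to 322.3, 441.6 and 277.6, and was at 175.9, 160.3 and 139.8 with icariin (1.08, SE 0.15, adjusted p = 0.00076, and -1.10). Bach1, a heme-regulated repressor, had 48.1, 49.3 and 55.1 CPM in control and 107.7, 165.4 and 82.8 in CIAKI (1.15, SE 0.22, adjusted p = 0.0033). In both, CIAKI 2 was the highest library, as in Psmd5 and Zfand2a and unlike most members. Hsf1, the heat shock factor, rose by 0.63 (adjusted p = 0.0070).

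The third list held genes of ubiquitin and of the enzymes and shuttles that carry it, in 19 rows of the table. Of these 4 rose in CIAKI, 0 fell and 15 were not called (median 0.27), beside 20.8% of all genes called higher. With icariin against CIAKI 8 fell and 0 rose (median -0.20), beside 20.2% called lower. The rows not called in either comparison include both rows of Rps27a and both rows of Uchl3. Summed over its rows, each of these symbols was higher in every CIAKI library than in any control or icariin library, and the sums were not tested. Rad23b, a shuttle that delivers ubiquitylated proteins to the 19S particle, had 155.1, 165.8 and 157.6 CPM in control and 317.3, 243.4 and 241.9 in CIAKI (0.73, SE 0.10, adjusted p = 0.00067). Ube2n, a conjugating enzyme for K63 chains, rose by 0.59 (adjusted p = 0.00096), the shuttle Ubqln1 by 0.35 (adjusted p = 0.0018), and its relative Ubqln4 by 0.27 (adjusted p = 0.032). The call of Ubqln4 was lost with any control library, CIAKI 1 or CIAKI 3 left out.

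**Figure D4:**
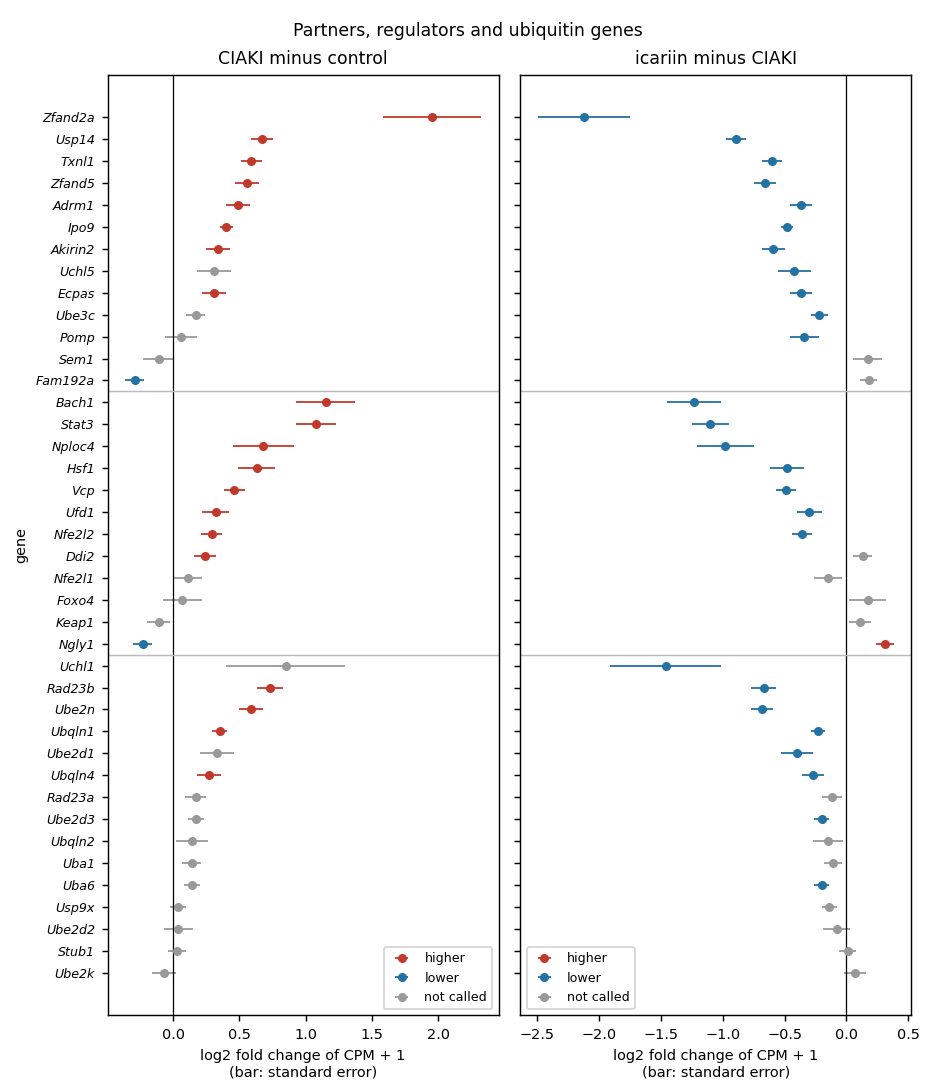
Log2 fold change (x axis, CPM + 1; bars are standard errors) of partner genes (top block), regulators (middle block) and ubiquitin genes (bottom block) for CIAKI minus control and icariin minus CIAKI; color marks the call, and symbols on more than 1 row of the table are left out. Zfand2a lies farthest out at 1.95 and -2.12, while Nfe2l1 sits at 0.11 and -0.15.

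Since the members moved together, their promoters were read in RefSeq sequences of the GRCr8 assembly, 300 bases from 250 before to 50 after the start of each gene, for 40 of the 44 members. The antioxidant response element core, TGACNNNGC, which Nfe2l1 and Nfe2l2 bind, was found on either strand in 8 of 40 members and in 12.1% of all 33469 promoters. These are the 10 matches with 10 bases on each side, 5′ to 3′ on the strand that reads TGACNNNGC, with the core in capitals. They are shown because members with a core can be set against those without. Coordinates are of GRCr8 and the sign is the strand printed.
Psma3 (chr6:95219727-95219755, -): ctcatggtgcTGACCCGGCaggccacaga
Psmb2 (chr5:144254980-144255008, +): cccgcgccaaTGACCGGGCggtcgcatat
Psmb5 (chr15:32047421-32047449, -): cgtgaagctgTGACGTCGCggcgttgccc
Psmb6 (chr10:55737854-55737882, +): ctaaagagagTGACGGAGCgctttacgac
Psmd1, first (chr9:94157796-94157824, +): accagatctaTGACCTCGCgagaattata
Psmd1, second (chr9:94157983-94158011, +): gtgaggggacTGACTGAGCagcgcacccg
Psmd3 (chr10:84139941-84139969, -): ggccgcacgaTGACCGAGCagctgcaaac
Psmd9, first (chr12:39018323-39018351, -): gagtttccggTGACCTCGCcccacctcca
Psmd9, second (chr12:39018370-39018398, +): ggttttcagaTGACCCGGCagagctaagt
Psme4 (chr14:108706578-108706606, -): ggcgaggaggTGACCCAGCggctttctcc

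Members with and without the core overlapped in their fold changes. Of the 8 with a core 6 rose in CIAKI, with a median of 0.54 and a range of 0.19 to 0.76, and of the 32 without one 28 rose, with a median of 0.52 and a range of -0.13 to 1.15. Psmb2 and Psme4, which hold a core, are among the genes not called. The CCAAT box (CCAAT, either strand) was found in 20 of 40 members and 37.5% of all promoters, the E-box (CACGTG) in 5 of 40 and 6.42%, and the heat shock element core (TTCNNGAA) in 2 of 40 and 8.77%. A match describes letters only: it is not a binding site, and its absence from a window says nothing of the factor.

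The 250 bases upstream of Psmd1, a strongly changed gene with a core in this stretch, and of Psmd5, the most changed gene with none in its window, show the contrast. They are printed 5′ to 3′ on the gene's strand, with the core in capitals.
Psmd1 (GRCr8 chr9:94157721-94157970, +): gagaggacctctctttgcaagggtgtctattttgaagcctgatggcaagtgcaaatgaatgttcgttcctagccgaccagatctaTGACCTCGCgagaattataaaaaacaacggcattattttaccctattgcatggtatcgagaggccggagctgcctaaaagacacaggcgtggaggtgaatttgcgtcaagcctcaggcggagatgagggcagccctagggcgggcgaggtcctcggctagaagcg
Psmd5 (GRCr8 chr3:38548491-38548740, -): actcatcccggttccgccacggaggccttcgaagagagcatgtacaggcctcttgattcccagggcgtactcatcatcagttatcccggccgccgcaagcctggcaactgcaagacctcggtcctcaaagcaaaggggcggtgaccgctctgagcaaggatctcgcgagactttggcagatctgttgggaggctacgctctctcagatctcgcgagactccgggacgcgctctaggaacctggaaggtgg
The Psmd5 stretch holds the palindrome TCTCGCGAGA at 2 places, with first bases at -90 and -43 from the start. This motif was searched only after the sequence had been read. It is in 125 of 33469 promoters (0.373%), at 2 or more places in 10 of them, and in 2 of 40 members, Psmb2 (at -102) and Psmd5, of which the first was not called and the second had the largest change.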

How the data were processed

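Trizol RNA of 9 kidneys was made into libraries with the TruSeq kit of Illumina, per the labels. The submitters' processing notes name Bowtie 0.12.2 and mm8, a mouse build, while the identifiers are rat Ensembl genes in 22050 rows. The remaining 14217 rows are assembled features. The build's role, the counter, the annotation release and the strand setting are not stated in any source read here. Genes with near-identical copies, which many proteasome genes have as pseudogenes, and overlapping genes are therefore uncertain. The main table was deposited by the authors in CPM, without length correction. Values were whole multiples of 1 step per library, and whole reads were recovered from 100% of them (within 0.1 of a whole number). They matched each of 23850 deposited counts of selected mRNAs, in a table that also holds FPKM, per the file headers.

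The 16731 features that reached 1 CPM in 3 or more libraries were fitted on log2(CPM + 1) with limma 3.58.1 in R 4.3.3, with an intensity trend, group as the factor and all 9 libraries in the fit. Tests were two-sided, with Benjamini-Hochberg adjustment over all features and calls at an adjusted p below 0.05. The 3 rats per group were separate animals, so errors measure the spread between rats. The code of the fit was also run on simulated reads with the same fixed spread for every gene, which does not test the calls made here. Alternatives were pseudocounts of 0.1 and 5, other filters and scalings, other fits, each library left out, and edgeR 4.0.16 and DESeq2 1.42.0 on the recovered reads, where edgeR called 7028, 6745 and 76 genes in CIAKI against control, icariin against CIAKI and icariin against control.

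The members and lists were chosen with earlier results of these data known. Named genes were, per role list, up to 3 with the smallest p in CIAKI against control and any moving against its list; the active-site and immunoproteasome genes; up to 4 of each partner list, with Nfe2l1, Nfe2l2 and Pomp. Other named genes, such as Psma7, Psmb2, Psmc2, Psmd6, Psmd14, Psmf1, Psmg1, Adrm1, Sem1, Ddi2 and Zfand2a, were chosen with their values already seen. In the partner lists, Paaf1 was not matched, and some ubiquitin genes are not reported here. Promoter sequences are RefSeq's.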

Additional observations from a re-analysis of the deposited data

How the results depend on the processing

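Across 22 alternative settings, 34 to 38 proteasome genes were called higher in CIAKI and 30 to 38 lower with icariin against CIAKI, and 0 in icariin against control. Of the 38 and 35 calls, 33 and 29 held in every setting that kept the gene, which for Psmd10 was 21, since a mean of at least 5 CPM leaves it out. Those lost at least once were Psma7, Psmc2, Psme2, Psmg3 and Psmg4 in CIAKI, and Psmc2, Psmc3, Psmd4, Psmd6, Psmd13 and Psmg4 with icariin. Leaving out each library gave 34 to 38 genes higher, 30 to 36 lower, and medians of 0.44 to 0.56 and -0.52 to -0.41. The lowest median, 0.44, came without CIAKI 1. Without that library the icariin values of Psmc2, Psmd13, Psmd4 and Psmg4, -0.17, -0.21, -0.28 and -0.30, were not called. With other libraries left out, calls were lost for Psmc2 (each control and icariin library), Psmd13 (control 1 or 3, icariin 1 or 3), Psmd4 (icariin 2 or 3), Psmc3 (icariin 3) and Psmg4 (control 1, CIAKI 3 or any icariin library). Genes called higher with icariin against CIAKI, 0 in the reported fit, numbered 2 with upper-quartile scaling, 2 with quantile normalization (Psmf1 and Psmg1) and 1 with DESeq2 (Psmg1), and 0 to 1 when a library was left out. All genes called between icariin and control, 105, became 52 without the filter and 524 with DESeq2, and 30 to 130 with a library left out.

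Fold changes that changed sign were all near 0 and not called. In CIAKI, Psmc3ip was at -0.004 with a pseudocount of 0.1 and -0.039 with upper-quartile scaling, and -0.107 to 0.207 with a library left out. Pomp was at -0.006 with upper-quartile scaling and -0.027 to 0.141 with a library left out, and Psmg1 at -0.117 to 0.01 (0.009 without control 2). With icariin against CIAKI, Psme1 was at 0.052 with upper-quartile scaling and 0.065 with quantile normalization, and -0.053 to 0.023 with a library left out, and Psmc3ip at -0.029 with quantile normalization and -0.037 to 0.276. The cause was not tested. A pseudocount of 5 lowered the fold changes of Psmd10 and Psmb8 in CIAKI to 0.44 and -0.74, as it must for low genes. The replicate numbers gave little sign of pairing the samples. Deviations of same-numbered libraries correlated at -0.03 to 0.08 over 9 pairs, and those of other-numbered libraries at -0.10 to 0.04 over 18 pairs. With the number as a replicate block, 6678, 6314 and 73 genes were called, 37 proteasome genes higher in CIAKI and 33 lower with icariin.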

Other observations

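A pair of symbols of the ubiquitin list each stood on 2 rows of the gene table, and neither row was called in CIAKI. The rows of Rps27a, which encodes ubiquitin fused to a ribosomal protein, read 56.7, 13.8 and 66.8 and 32.1, 69.4 and 15.3 CPM in the control libraries. Where one row was high the other was low. Their sums were 88.8, 83.2 and 82.1 CPM in control, 178.8, 119.4 and 142.0 in CIAKI and 90.3, 92.5 and 91.9 with icariin, so that the CIAKI sums lay above all others. The rows of Uchl3, a ubiquitin hydrolase, summed to 15.0, 17.2 and 16.2 CPM in control, 30.5, 25.1 and 26.7 in CIAKI and 17.2, 18.7 and 18.4 with icariin, again with CIAKI apart. No source read here says how shared reads were assigned, and the sums were not tested.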
